A study of Mus musculus with 8 samples.

Results

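The genes described here encode the T cell receptor (TCR) signalling machinery. They comprise the CD3 chains that carry the signal into the cell, the kinases and adaptors that relay it, and the enzymes and factors at the ends of its main branches. They also include the phosphatases, ubiquitin ligases and lipid kinases that regulate it. The genes were taken by gene symbol from a list of 37 names, and no threshold on a measured value entered the choice, although the list was drawn up with earlier results of these data known. All 37 were found among the 55335 genes of the deposited count table, and all 37 were among the 15378 genes with enough counts to be tested.

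A T cell recognizes antigen through the variable TCR chains, which have no signalling domain of their own and depend on the CD3 chains, whose immunoreceptor tyrosine-based activation motifs are phosphorylated by the kinase LCK. ZAP70 binds the phosphorylated motifs and phosphorylates the adaptors LAT and SLP76, on which phospholipase C and exchange factors assemble. The signal then divides into the calcium and NFAT, the Ras and MAP kinase, and the NF-κB branches. The kinase CSK, anchored at the membrane by PAG1, and several phosphatases hold this pathway in check. Chronic antigen stimulation through it is a hallmark of exhausted CD8+ T cells in tumors.

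To compare T cells with and without the histone demethylase LSD1, RNA was sequenced from CD8+ tumor-infiltrating lymphocytes (TILs). The cells were sorted for CD45.2, TCRβ, CD8, CD44 and PD-1 from MC38 tumors, a mouse colon carcinoma implanted in C57BL/6 mice. The 4 wildtype (WT) samples, S1 to S4, came from Lsd1f/f mice, which carry the floxed allele without Cre. The 4 LSD1-deficient (KO) samples, S5 to S8, came from Cd4-Cre+Lsd1f/f littermates, in which Cre is driven by *Cd4* sequences, acts from thymic development on and also reaches CD4+ T cells. The mice were young adults, and no treatment is named for either group. Each WT sample combined cells of 2 tumor-bearing mice whereas each KO sample came from 1 mouse, so genotype and pooling cannot be told apart. About 10000 to 20000 cells were lysed per sample, on day 18 after implantation by the sample protocol and after 14 days by the design text.

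Total counts per sample ranged from 11657807 to 30295406, and the fewest counts of any of the 37 genes in any sample were 424. Levels are given as CPM, counts relative to the library total and scaled by edgeR's TMM factors, and differences between groups were tested with the quasi-likelihood method of edgeR, with Benjamini-Hochberg adjustment over all 15378 genes. SE denotes the standard error. *Kdm1a*, which encodes LSD1, was at 44.6, 47.2, 42.7 and 44.9 CPM in S1 to S4 and at 25.2, 30.5, 32.0 and 34.8 CPM in S5 to S8. The groups did not overlap (log2 fold change -0.55 ± 0.14 SE, edgeR adjusted p = 0.0163), but *Kdm1a* transcripts remained in every KO sample. The genes of the sort gate (*Ptprc*, *Cd8a*, *Cd8b1*, *Trac*, *Trbc1*, *Trbc2*, *Cd44* and *Pdcd1*) summed to 5145 to 5519 CPM in WT and 4962 to 5426 CPM in KO samples. Within this sum *Cd44* was higher in KO cells (1.81-fold, edgeR adjusted p = 0.000107) and *Cd8b1* lower (edgeR adjusted p = 0.0158). Markers of macrophages and other myeloid cells, 17 genes such as *C1qa* and *Lyz2*, summed to 308 to 869 CPM in WT samples, with S3 the highest, and to 63.8 to 110 CPM in KO samples. Of the 16 that could be tested, 10 were lower and 0 higher in KO at a fold change over 1.5 and an adjusted p under 0.01. A sum over 5 B cell genes stayed at or below 5.71 CPM, and 4 gamma delta T cell genes summed to 9.12 to 19.8 CPM in WT and 3.39 to 10.5 CPM in KO samples. The sum of 3 NK cell genes was 46.3 to 64.0 CPM in WT and 22.8 to 54.8 CPM in KO samples. *Eomes* made up most of this sum in every sample and was lower in KO cells (log2 fold change -0.86, edgeR adjusted p = 0.0477). *Klrb1c* went the other way, at a mean of 0.46 CPM in WT and 3.86 CPM in KO samples (8.66-fold, edgeR adjusted p = 0.0338). *Ncr1* stayed at or below 0.985 CPM. The sum therefore does not show fewer NK cells in KO samples, and their share was not tested. Of 7 tumor and stroma genes, the sum was 21.4 to 32.1 CPM in WT and 57.4 to 79.3 CPM in KO samples. Most of it was *Pecam1*, which was higher in KO cells (2.78-fold, edgeR adjusted p = 5.23e-06). *Col1a1* averaged 1.07 CPM in WT and 0.64 CPM in KO samples, and *Pdgfrb* and *Krt8* had no count. Which cells gave the *Pecam1* reads was not tested. The CD4+ T cell genes *Cd4*, *Foxp3* and *Cd40lg* summed to 5.58 to 9.70 CPM in WT and 16.5 to 47.1 CPM in KO samples. *Cd4* was at 4.54 ± 2.07 CPM in WT and 14.3 ± 8.66 CPM in KO samples (SD, n = 4 each, edgeR adjusted p = 0.0161). *Cd40lg* was 5.34-fold higher in KO cells (edgeR adjusted p = 0.000126).

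For 31 of the 37 genes of the TCR signalling machinery no difference between WT and LSD1-deficient TILs passed the test. At the thresholds of the study (over 1.5-fold, with an adjusted p under 0.01), 1 of the 37 was higher in KO cells, *Pag1*, and 1 was lower, *Ptpn6*. Over all genes tested, 2.91% were called higher and 1.99% lower at these thresholds. At an adjusted p under 0.05 with no limit on the fold change, 2 genes were higher (*Pag1* and *Ptpn22*) and 4 were lower (*Ptpn6*, *Csk*, *Malt1* and *Cd247*). This is 5.41% and 10.8% of the 37 genes, against 6.31% and 4.98% of all genes tested. "Rose" and "fell" are used below only for these 6 genes and for others that passed this test. Among the 4389 genes above the mean level of the least abundant of the 37, a comparison added after the values were seen, 11.2% were higher and 6.77% lower at this adjusted p. The share in the machinery was below this on the higher side and above it on the lower side, with counts of only 2 and 4 genes behind it.

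The WT and KO samples did not overlap for 5 genes that lay higher in KO cells (*Plcg1*, *Rasgrp1*, *Ptpn22*, *Ubash3a* and *Pag1*) and for 4 that lay lower (*Cd3g*, *Cd247*, *Malt1* and *Ptpn6*), against 8.99% and 8.28% of all genes tested. Together these 9 were 24.3% of the machinery. Among the 4389 genes above the mean level of the least abundant of the 37, the groups did not overlap in 23.9%. This set has a floor in abundance and is not matched to the 37 genes above it. The shares of 24.3% and 23.9% were near each other. The median log2 fold change was 0.08 over the 37 genes and -0.01 over all genes tested. The median size of the log2 fold change, sign aside, was 0.19 against 0.29, and 0.19 in the 4389 genes above the floor.

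The 31 genes that did not pass the test had log2 fold changes from -0.36 (*Cd3g*) to 0.29 (*Sla*). Their 95% intervals assume a normal error and are narrower than the edgeR test implies. For *Lat*, the interval starts at 0.0026, although its unadjusted edgeR p was 0.0639. Taken this way, all 31 intervals lay within a fold change of 1.5 in either direction. The lowest bound was -0.58 (*Cd3g*), so close to that limit that a wider interval could cross it, and the highest was 0.49 (*Sla*). The 37 genes were measured with standard errors of 0.09 to 0.14 on the log2 scale, and their median coefficient of variation over the 4 samples of a group was 8.12% in WT and 9.0% in KO. Summed over all 37 genes, the machinery was at 9992 ± 276 CPM in WT and 10097 ± 311 CPM in KO samples (SD, n = 4 each).

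**Figure D1:**
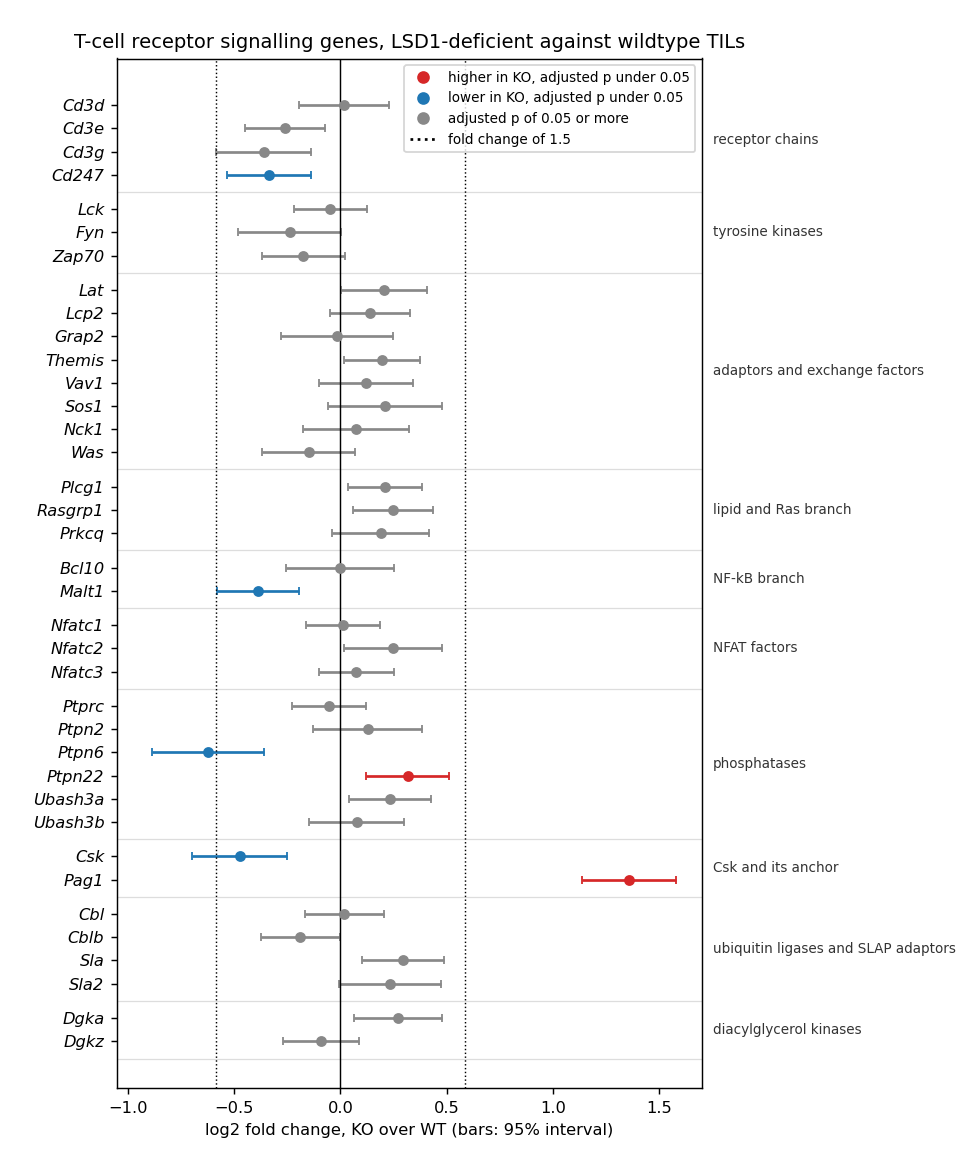
Log2 fold change of each of the 37 genes, KO over WT, by role, with bars for the 95% interval and dotted lines at a fold change of 1.5. *Pag1* stands alone at 1.36, *Ptpn6* is the lowest at -0.62, and the 31 gray genes lie between -0.36 and 0.29.

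The receptor chains *Cd3d*, *Cd3e* and *Cd3g* lie side by side within 40.1 kb of chromosome 9 (44969572 to 45009627 on GRCm38). *Cd247*, which encodes the zeta chain with most of the activation motifs of the complex, is on chromosome 1 (165788681 to 165877277, plus strand). *Cd247* was at 128, 127, 117 and 133 CPM in S1 to S4 and at 89.7, 99.2, 99.2 and 112 CPM in S5 to S8. No KO sample reached the WT range, and *Cd247* fell by 20.7% (log2 fold change -0.33 ± 0.10 SE, edgeR adjusted p = 0.0409). The call was lost when any 1 of S1 to S7 was left out, at adjusted p from 0.0525 without S3 to 0.115 without S4, and with no filter on low counts (edgeR adjusted p = 0.0606). *Pou2f1*, a gene on the opposite strand with 8580 counts over all samples against 14540 for *Cd247*, covers 56.4% of the exon length of *Cd247*. Since it is not stated whether counting used the strand, reads of the pair may be mixed.

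*Cd3g* was at 168, 175, 173 and 225 CPM in WT and at 148, 136, 162 and 130 CPM in KO samples. The groups did not overlap, yet the difference missed the threshold by a small margin (log2 fold change -0.36 ± 0.11 SE, edgeR adjusted p = 0.0505). It passed under 8 of 16 alternatives, among them DESeq2 (adjusted p = 0.0245). Without S4, the WT sample that lies above the rest, its log2 fold change was -0.26 (edgeR adjusted p = 0.182). *Cd3e* was at 349, 402, 402 and 418 CPM in WT and at 316, 310, 372 and 316 CPM in KO samples. Only S7 of the KO samples reached into the WT range (log2 fold change -0.26 ± 0.10 SE, edgeR adjusted p = 0.098), and without S1 the edgeR adjusted p was 0.0487. *Cd3d* was at 164, 158, 132 and 171 CPM in WT and at 141, 158, 178 and 156 CPM in KO samples. The groups were interleaved (log2 fold change 0.02, 95% interval -0.20 to 0.23, edgeR adjusted p = 0.955). The sum of the 4 chains was 809 to 947 CPM in WT and 695 to 811 CPM in KO samples, with S7 alone reaching the WT range. The 3 genes of the chromosome 9 cluster had log2 fold changes from -0.36 to 0.02.

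RefSeq start-site windows (GRCm38.p6, 250 bases before to 50 after the start) were matched for 32 of the 37 genes and searched on both strands for words of transcription factors. The words of TCF and LEF factors, which the study examined, were CTTTGAA, its close variant CTTTGAT, the word CTTTGTA and its close variant CTTTGTT. Those of ETS factors, common in lymphocyte promoters, were CCGGAAG as well as AGGAAGT. A gene was counted if any of its windows held a word. A TCF/LEF word was found for 7 of the 32 genes, against 18.9% of all 27025 genes with a window, and an ETS word for 12 of the 32, against 19.5%. In the sequences shown, no word overlaps another. The upstream part is shown for the called genes *Cd247* and *Ptpn6*, which held no TCF/LEF word, and for *Cd3d*, a receptor chain with no call that held 2 of them. Letters run 5′ to 3′ with the words in capitals.
Cd247, chr1:165788431-165788680, plus strand: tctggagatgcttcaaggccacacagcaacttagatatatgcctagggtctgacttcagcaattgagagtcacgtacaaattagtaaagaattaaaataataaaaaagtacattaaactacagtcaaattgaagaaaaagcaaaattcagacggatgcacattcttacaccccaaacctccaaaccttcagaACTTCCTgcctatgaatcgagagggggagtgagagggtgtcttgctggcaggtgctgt
Ptpn6, chr6:124738715-124738959, minus strand: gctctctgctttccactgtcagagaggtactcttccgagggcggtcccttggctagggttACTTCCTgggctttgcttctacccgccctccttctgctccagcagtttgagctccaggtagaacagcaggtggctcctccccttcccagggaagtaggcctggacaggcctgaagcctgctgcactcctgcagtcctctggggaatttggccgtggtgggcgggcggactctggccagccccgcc
Cd3d, chr9:44981536-44981785, plus strand: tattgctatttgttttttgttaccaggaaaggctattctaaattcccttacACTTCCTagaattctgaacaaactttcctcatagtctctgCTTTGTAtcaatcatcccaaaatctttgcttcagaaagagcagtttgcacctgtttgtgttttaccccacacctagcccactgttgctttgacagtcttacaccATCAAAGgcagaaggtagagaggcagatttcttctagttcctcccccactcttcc
The capitals ACTTCCT in all of them are AGGAAGT read on the other strand. They begin 58, 190 and 199 bases before the RefSeq start of *Cd247*, *Ptpn6* and *Cd3d*. The *Ptpn6* stretch is shown with 245 bases, since the last 5 before that start lie within the annotated gene and were left out. *Cd247* held a second AGGAAGT on the other strand 21 bases after its start, outside the part shown. The TCF/LEF words of *Cd3d* begin at 159 bases (CTTTGTA) and 55 bases (ATCAAAG, the reverse of CTTTGAT) before the start. Of the other called genes, *Csk* held neither kind of word in its 2 windows, and *Ptpn22* held 2 TCF/LEF words in one of its 2 windows. *Pag1*, *Malt1*, *Sla*, *Nfatc1* and *Ptpn2* had no window. These matches are a description of letters, and binding was not measured.

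None of the 3 tyrosine kinases at the top of the pathway passed the test. *Lck*, which phosphorylates the CD3 motifs, was at 539, 561, 533 and 529 CPM in WT and at 494, 487, 549 and 564 CPM in KO samples. These ranges overlap at both ends (log2 fold change -0.05, 95% interval -0.22 to 0.12, edgeR adjusted p = 0.813). *Zap70* was at 250, 243, 218 and 265 CPM in WT and at 232, 189, 220 and 223 CPM in KO samples. These groups overlapped as well (log2 fold change -0.17, 95% interval -0.37 to 0.02, edgeR adjusted p = 0.308). *Fyn*, the Src kinase that works beside LCK, had a log2 fold change of -0.24 (edgeR adjusted p = 0.252). Its KO samples ran from 150 CPM in S5 to 235 CPM in S8, wider than the WT range of 201 to 232 CPM. Without S8 the log2 fold change of *Fyn* was -0.38 (edgeR adjusted p = 0.0324).

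CSK switches LCK off by phosphorylating its inhibitory tyrosine, and PAG1 (also called Cbp) is the transmembrane adaptor that recruits CSK to the membrane. The genes of this pair moved in opposite directions. *Pag1* (chromosome 3, 9687479 to 9833679, minus strand) was at 96.7, 89.2, 94.2 and 72.2 CPM in S1 to S4 and at 203, 229, 218 and 253 CPM in S5 to S8. The lowest KO sample was above the highest WT sample by a factor of more than 2. *Pag1* rose 2.56-fold (log2 fold change 1.36 ± 0.11 SE, edgeR adjusted p = 5.79e-07). An exact two-sided permutation test over the samples gave p = 0.0286, the smallest that 4 against 4 allow. *Pag1* passed the study's thresholds under all 16 alternatives, with log2 fold changes from 1.27 to 1.41.

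*Csk* (chromosome 9, 57626646 to 57653631, minus strand) was at 164, 205, 200 and 210 CPM in WT and at 131, 137, 126 and 166 CPM in KO samples. S1 was the lowest WT and S8 the highest KO sample, and these overlapped by a small margin. *Csk* fell by 28.0% (log2 fold change -0.47 ± 0.11 SE, edgeR adjusted p = 0.011), with p = 0.0571 in the exact two-sided permutation test. It had an adjusted p under 0.05 under all 16 alternatives, without reaching the fold change of 1.5. Per kilobase of exon, *Pag1* was at 0.134 to 0.231 of the level of *Csk* in WT samples and at 0.594 to 0.673 in KO samples. The mean ratio of anchor to kinase transcripts was 0.18 ± 0.04 in WT and 0.631 ± 0.038 in KO samples (SD, n = 4 each). Only the level of transcripts was measured, not the amount of either protein at the membrane.

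Of the 6 phosphatase genes, 1 rose, 1 fell and 4 did not pass the test. *Ptpn6* (chromosome 6, 124720707 to 124738714, minus strand) encodes SHP-1, which dephosphorylates the proximal kinases. It was at 230, 261, 266 and 288 CPM in WT and at 219, 131, 177 and 152 CPM in KO samples. The groups did not overlap, though S5 (219 CPM) lay close to S1 (230 CPM). *Ptpn6* fell by 35.0% (log2 fold change -0.62 ± 0.13 SE, edgeR adjusted p = 0.0054). The adjusted p stayed under 0.05 under all 16 alternatives, but the study's thresholds were missed with GC content offsets (log2 fold change -0.56, edgeR adjusted p = 0.0109). They were also missed without S2, S3, S4, S6, S7 or S8 (log2 fold change -0.64 to -0.52, adjusted p from 0.0142 to 0.0225).

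Macrophages also express *Ptpn6* and *Csk*, and the myeloid marker sum was lower in KO samples. S3, at 869 CPM of myeloid markers, was not the highest WT sample for *Ptpn6* or *Csk*, which S4 was for both, at a marker sum of 401 CPM. Without S3, the log2 fold change was -0.61 for *Ptpn6* (edgeR adjusted p = 0.0176) and -0.46 for *Csk* (edgeR adjusted p = 0.0348). The other WT samples, at marker sums of 308 to 401 CPM, still lay above all KO samples, at 63.8 to 110 CPM. Leaving out S3 therefore does not remove the myeloid difference between the groups. The part of myeloid RNA in these differences, and in the falls of *Malt1* and *Cd247*, was not tested. In bulk RNA, fewer cells of a type and less RNA per cell cannot be told apart.

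*Ptpn22* encodes a phosphatase that binds CSK and dephosphorylates LCK and ZAP70. It was at 586, 427, 520 and 485 CPM in WT and at 617, 621, 652 and 622 CPM in KO samples. All KO samples lay above S1, the highest WT sample, and *Ptpn22* rose by 24.5% (log2 fold change 0.32 ± 0.10 SE, edgeR adjusted p = 0.0485). The adjusted p was just under the threshold, which it missed under 10 of 16 alternatives. These were upper quartile factors (0.0653), library size alone (0.0945), GC content offsets (0.0691) and the omission of any 1 of S2 to S8, at adjusted p from 0.067 without S5 to 0.176 without S2. Per kilobase of exon, *Ptpn22* was at 0.677 to 1.06 of the level of *Ptpn6* in WT and at 1.17 to 1.95 in KO samples.

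*Ptprc*, which encodes CD45, the phosphatase that activates LCK, was the most abundant of the 37 genes in CPM, at 1835 ± 125 CPM in WT and 1769 ± 149 CPM in KO samples (log2 fold change -0.05, edgeR adjusted p = 0.786). *Ptpn2*, a phosphatase of LCK and of JAK kinases, was the least abundant in CPM, at 37 ± 2.8 CPM in WT and 40.4 ± 2.53 CPM in KO samples (log2 fold change 0.13, edgeR adjusted p = 0.615). *Ubash3a*, which encodes STS-2, was at 105, 106, 102 and 99.6 CPM in WT and at 125, 133, 116 and 110 CPM in KO samples. The groups did not overlap, but the test missed the threshold (log2 fold change 0.23, edgeR adjusted p = 0.146). Its relative *Ubash3b*, the more active phosphatase STS-1, had a log2 fold change of 0.08 (edgeR adjusted p = 0.756).

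**Figure D2:**
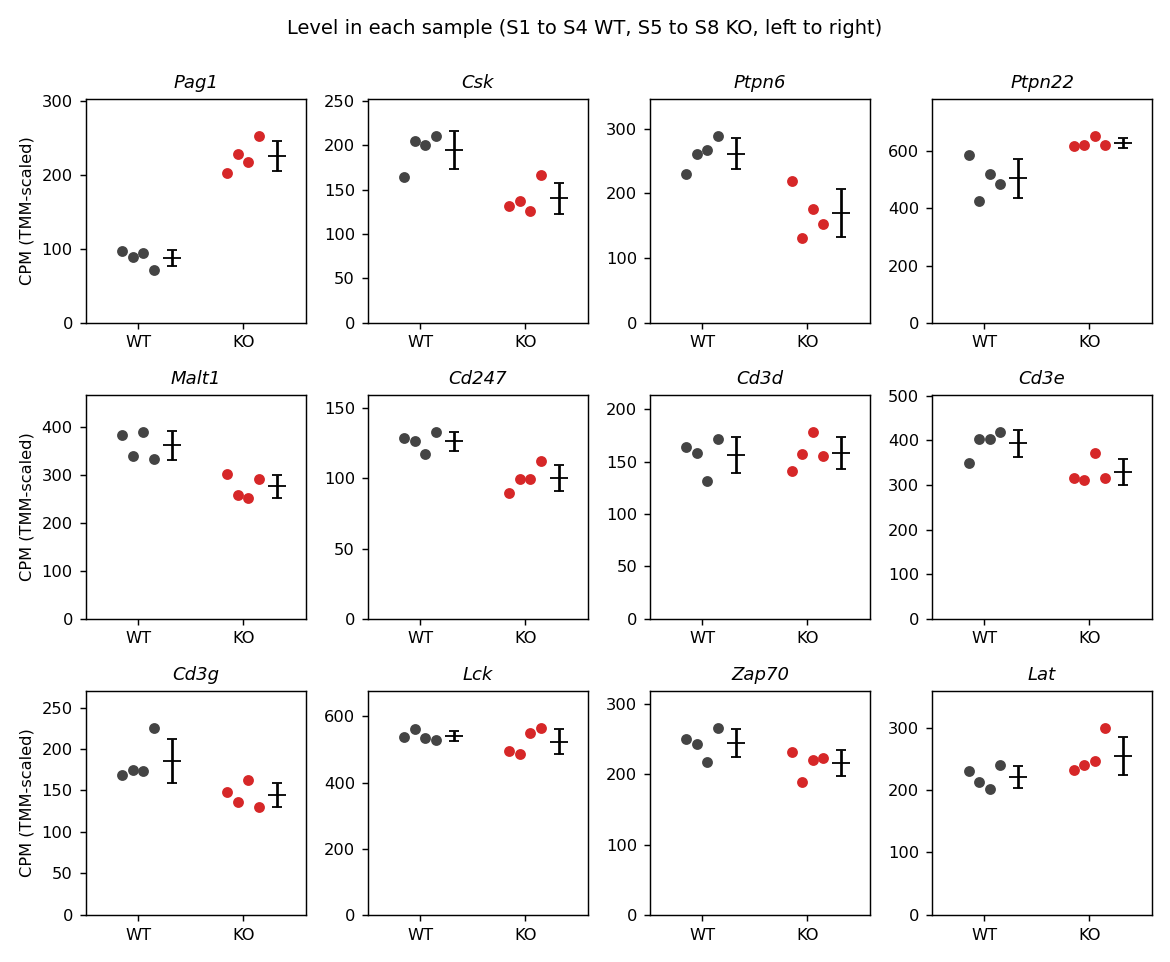
TMM-scaled CPM of 12 genes in each sample (axes start at 0), WT in dark gray and KO in red, with the mean and SD of 4 samples beside the points. *Pag1* separates widely, *Ptpn6*, *Malt1*, *Cd247*, *Cd3g* and *Ptpn22* separate by less, *Csk* overlaps at S1 and S8, and *Cd3d*, *Lck*, *Zap70* and *Lat* overlap.

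The 8 adaptors and exchange factors held 0 calls in either direction, with log2 fold changes from -0.15 to 0.21. *Lat*, the membrane scaffold that ZAP70 phosphorylates, was at 231, 213, 202 and 240 CPM in WT and at 233, 241, 247 and 299 CPM in KO samples. Only S5 of the KO samples lay within the WT range (log2 fold change 0.20, 95% interval 0.00 to 0.41, edgeR adjusted p = 0.238). *Lcp2*, which encodes SLP76, had a log2 fold change of 0.14 (edgeR adjusted p = 0.421). *Grap2*, whose product GADS links SLP76 to LAT, had one of -0.02 (edgeR adjusted p = 0.968), with KO samples spread from 188 to 306 CPM. *Themis*, an adaptor known from thymocyte selection, was nearly the same in the 4 WT samples, at 380 to 396 CPM, and ran from 392 to 483 CPM in KO samples (log2 fold change 0.19, edgeR adjusted p = 0.195). For the exchange factors *Vav1* and *Sos1* the log2 fold change was 0.12 and 0.21. For the cytoskeletal adaptors *Nck1* and *Was* it was 0.08 and -0.15. Their adjusted p ran from 0.383 to 0.787.

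Downstream of LAT, *Plcg1* and *Rasgrp1* lay above the WT range in each KO sample without passing the test across all genes. *Plcg1*, the phospholipase that makes the second messengers of the calcium and diacylglycerol branches, was at 394, 353, 393 and 349 CPM in WT and at 433, 400, 449 and 440 CPM in KO samples. The test missed the threshold (log2 fold change 0.21 ± 0.09 SE, edgeR adjusted p = 0.15). *Rasgrp1*, the exchange factor that diacylglycerol recruits to activate Ras, was at 194, 196, 190 and 159 CPM in WT and at 212, 214, 233 and 218 CPM in KO samples (log2 fold change 0.25 ± 0.10 SE, edgeR adjusted p = 0.116). *Prkcq*, the protein kinase C of the NF-κB branch, had a log2 fold change of 0.19 (edgeR adjusted p = 0.348). All 3 of these genes had positive log2 fold changes, and none passed the threshold.

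In the NF-κB branch, *Malt1*, the paracaspase that forms a complex with BCL10 and CARMA1, was at 385, 341, 390 and 333 CPM in WT and at 303, 259, 253 and 293 CPM in KO samples. All KO samples lay below all WT samples, and *Malt1* fell by 23.5% (log2 fold change -0.39 ± 0.10 SE, edgeR adjusted p = 0.0154). The adjusted p rose above 0.05 without S3 (0.0559), S6 (0.0563) or S7 (0.0595). S3 was the highest WT sample for *Malt1*, close to S1, and also the one with the most myeloid marker RNA. Its partner *Bcl10* was at 51.9 ± 5.99 CPM in WT and 51.8 ± 5.20 CPM in KO samples (log2 fold change 0.00, edgeR adjusted p = 0.996). The NFAT factors *Nfatc1*, *Nfatc2* and *Nfatc3*, which calcineurin sends to the nucleus, had log2 fold changes of 0.01, 0.25 and 0.08 (adjusted p from 0.204 to 0.956). *Nfatc1* varied little, at 228 to 235 CPM in KO and 209 to 248 CPM in WT samples.

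The ubiquitin ligases, the SLAP adaptors and the diacylglycerol kinases, which damp the signal by removing receptors or by consuming diacylglycerol, held 0 calls. *Cblb*, the ligase that sets the need for costimulation, was at 724, 674, 688 and 657 CPM in WT and at 658, 626, 617 and 509 CPM in KO samples (log2 fold change -0.19, edgeR adjusted p = 0.236). *Cbl*, its close relative, had a log2 fold change of 0.02 (edgeR adjusted p = 0.94). *Sla*, whose product SLAP guides CBL to the receptor, was at 380, 362, 413 and 444 CPM in WT and at 522, 431, 525 and 481 CPM in KO samples. Only S6 of the KO samples lay within the WT range (log2 fold change 0.29, edgeR adjusted p = 0.0644). The adjusted p was under 0.05 under 4 of 16 alternatives, among them DESeq2 (adjusted p = 0.022) and the omission of S4 or S6. *Sla2* had a log2 fold change of 0.23 (edgeR adjusted p = 0.264), and *Rab5if* on the opposite strand covers 23.6% of its exon length. *Dgka* and *Dgkz* had log2 fold changes of 0.27 (edgeR adjusted p = 0.115, and 0.0283 without S1) and -0.09 (edgeR adjusted p = 0.615). Per kilobase of exon, *Dgkz* was at 0.997 to 1.19 of the level of *Dgka* in WT and at 0.757 to 0.906 in KO samples. The groups of this ratio did not overlap, though neither gene passed the test. How often ratios of gene pairs separate in this way was not computed, so the separation has no background. The ratios of *Pag1* to *Csk* and of *Ptpn22* to *Ptpn6* did not overlap either, while the remaining pair ratios did. These were *Cd247* to *Cd3e*, *Ubash3b* to *Ubash3a*, *Cblb* to *Cbl* and *Sla* to *Sla2*.

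Levels of different genes can be set side by side only per exon length, as RPKM (CPM divided by kilobases of exon). In WT samples *Lck* was highest, at 185 ± 4.90 RPKM, followed by *Ptprc* (100 ± 6.81 RPKM), *Cd3e* (96.2 ± 7.4 RPKM), *Ptpn6* (93.3 ± 8.61 RPKM) and *Cd3d* (86.1 ± 9.49 RPKM, SD, n = 4 each). Those after *Lck* lay within about an SD of their neighbours. *Sos1* was lowest, at 5.91 ± 1.11 RPKM. *Pag1* was among the 3 lowest genes in WT samples (9.19 ± 1.15 RPKM, place 35 of 37) and took place 27 in KO samples (23.6 ± 2.17 RPKM). *Csk* went from place 11 to place 20, *Ptpn6* from place 4 to place 8, and *Ptpn22* from place 8 to place 3, while *Lck*, *Ptprc* and *Sos1* kept their places. *Cd247* was the receptor chain with the lowest level per exon length, at 23.7 ± 1.25 RPKM in WT and 18.8 ± 1.71 RPKM in KO samples. Its exon length of 5329 bases includes the part it shares with *Pou2f1*.

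**Figure D3:**
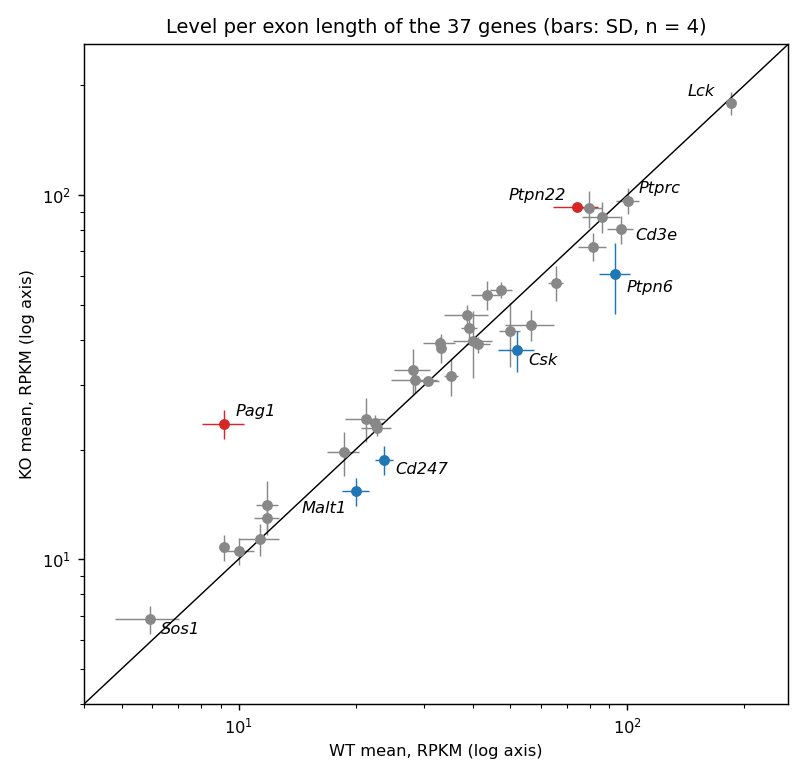
Mean RPKM of each of the 37 genes in WT (x axis) and KO (y axis), both on log axes, with bars of 1 SD over 4 samples and a line of equal levels. *Lck* is the highest at 185 and 179 RPKM, most genes lie near the line, and *Pag1* lies farthest above it at 9.19 and 23.6 RPKM.

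Around this core, 115 other genes of the TCR pathway were on a list, of which 114 could be tested (*Shb* had too few counts). At the study's thresholds 4 were higher and 1 was lower in KO cells. At an adjusted p under 0.05, 9 rose and 9 fell, which is 7.89% in each direction, against 6.31% and 4.98% of all genes tested. *Trat1*, which encodes TRIM, a transmembrane adaptor that associates with the TCR and CD3 complex, ran from 3.38 to 4.09 CPM in WT and from 19.3 to 32.6 CPM in KO samples. All KO samples were several-fold above all WT samples, and the log2 fold change was 2.83 ± 0.23 SE (edgeR adjusted p = 4.06e-07). The CD4+ T cell marker sum was also higher in each KO sample (16.5 to 47.1 CPM), and the part of such cells in this and the other rises was not tested. *Trat1* was lowest of the KO samples in S6, which had the highest marker sum. With every KO sample above every WT sample in both, this order does not bear on the difference between the groups. The Tec family kinase gene *Tec* rose (log2 fold change 0.90, edgeR adjusted p = 0.0027), as did *Itpr1*, the calcium channel opened by the product of phospholipase C (0.79, edgeR adjusted p = 0.000127). So did the diacylglycerol kinase gene *Dgkh* (0.59, edgeR adjusted p = 0.00063). *Vav2*, a relative of *Vav1*, was at 10.7 to 15.4 CPM in WT and 2.34 to 6.40 CPM in KO samples and fell (log2 fold change -1.34, edgeR adjusted p = 0.0086). It missed the study's thresholds when any 1 sample was left out, at adjusted p from 0.0102 without S5 to 0.039 without S2. *Tec* missed them without S2 (0.0137) or S7 (0.0102), and *Dgkh* without S2, S4, S5 or S7 and with upper quartile factors or library size alone, where its log2 fold change was 0.56 to 0.57.

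Among the co-receptor and TCR constant genes, *Cd8b1* was at 306, 359, 343 and 377 CPM in WT and at 231, 289, 267 and 268 CPM in KO samples. It fell without reaching a fold change of 1.5 (log2 fold change -0.39, edgeR adjusted p = 0.0158). *Cd8a* had a log2 fold change of -0.27 (edgeR adjusted p = 0.0676), *Trac* of -0.04 (edgeR adjusted p = 0.835), *Trbc1* of -0.31 and *Trbc2* of -0.18 (edgeR adjusted p = 0.328 and 0.595). The phosphatase genes *Ptprj* (0.53) and *Inppl1* (0.45), the calcineurin inhibitor *Cabin1* (0.38), the Ras inhibitor *Rasa3* (0.42) and the NF-κB subunit *Rel* (0.45) also rose, with log2 fold changes in parentheses. *Sh2d2a* (-0.32), which encodes the adaptor TSAd, *Ptpn11* (-0.36), which encodes SHP-2, the calcineurin subunit gene *Ppp3r1* (-0.40), *Nfat5* (-0.34), *Mapk3* (-0.50), which encodes ERK1, *Dgkd* (-0.49) and *Pak1* (-3.29) fell. *Pak1* was at 7.67 CPM in S3, the WT sample with the most myeloid marker RNA, and at 0.825 to 2.27 CPM in the other WT samples. Without S3 its log2 fold change was -2.28 and no longer passed the test (edgeR adjusted p = 0.252). The call was also lost without S1, S6, S7 or S8 (edgeR adjusted p from 0.0508 to 0.0789). The part of myeloid RNA in the fall of *Pak1* was not tested. By branch, 1 of 14 NF-κB genes and 4 of 22 Ras and MAP kinase genes passed in either direction. So did 4 of 19 calcium and calcineurin genes, 2 of 19 PI3K and actin genes and 2 of 16 kinases and adaptors. Of the transmembrane adaptors, inhibitory adaptors and phosphatases, 4 of 19 passed. Over all genes tested, 6.31% were higher and 4.98% lower at an adjusted p under 0.05. Whether the branches differ was not tested, and these counts are small.

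Of 22 genes that TCR stimulation is known to induce, all tested, 7 were higher and 4 lower at the study's thresholds. At an adjusted p under 0.05, 9 rose and 5 fell, or 40.9% and 22.7% of the list, against 6.31% and 4.98% of all genes tested. The list was drawn up with earlier results of these data known, and the study had reported lower *Tox* in them. Its share of calls is therefore no independent result about the TCR response. The early growth response factors *Egr2* (log2 fold change 0.90) and *Egr3* (0.77), the transcription factor *Irf4* (1.04), the interleukin 2 receptor chain *Il2ra* (0.80), the atypical NF-κB inhibitor *Nfkbid* (0.68) and the inhibitory receptors *Ctla4* (0.79) and *Havcr2* (1.08) passed the study's thresholds on the higher side. Of these, *Nfkbid* missed them under 6 of 16 alternatives, with library size alone (adjusted p = 0.0105) and without S2, S3, S4, S6 or S7 (log2 fold change down to 0.52, adjusted p up to 0.0267), and *Egr3* without S6 (0.0102) or S7 (0.0110). *Myc* (-1.11), the costimulatory receptor *Tnfrsf4* (-1.02), the MAP kinase inhibitor *Spry2* (-1.57) and *Tox* (-1.17), a transcription factor of exhausted cells, passed them on the lower side. *Nr4a3* (0.53) and *Spry1* (0.79) rose and *Nr4a2* (-0.54) fell at the adjusted p under 0.05. The activation markers *Cd69* (0.17, edgeR adjusted p = 0.558) and *Tnfrsf9* (0.10, edgeR adjusted p = 0.679) and *Nr4a1* (0.25, edgeR adjusted p = 0.108) did not pass. *Irf4* was at 194, 162, 178 and 224 CPM in WT and at 371, 384, 450 and 352 CPM in KO samples. *Myc* was at 69.9, 72.1, 59.5 and 86.8 CPM in WT and at 25.4, 42.5, 23.6 and 41.4 CPM in KO samples. Neither gene had overlapping groups. Whether the rate of calls in this list differs from that in the machinery was not tested.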

How the data were processed

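The deposited values are raw counts per gene of 8 samples. The authors made them from paired reads with STAR (GRCm38) and featureCounts on GENCODE genes, without normalization, and tested them with DESeq2 after correcting for GC content. Whether the counting used the strand is not given in the sources used here. The study names S1 to S4 as WT and S5 to S8 as KO, and the columns were grouped by these names, which carry no replicate number. Annotation was taken from GENCODE M21 (GRCm38), where 55154 of 55335 gene IDs were found, and start-site sequences from RefSeq (GRCm38.p6).

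The 37 genes, the other lists and the tests were chosen with earlier results of these data known. Counts were tested with edgeR 4.0.16 in R 4.3.3 (filterByExpr, TMM, glmQLFit and glmQLFTest, no covariate), and p-values were adjusted over all 15378 genes kept. Dividing the size of a log2 fold change by the square root of F gave its standard error. Single genes were also compared by an exact two-sided permutation test (70 arrangements of 4 against 4), on log2 CPM with 2 as the prior count. Scripts were tested on simulated data. The text gives values in every sample for each of the 37 genes with an adjusted p under 0.05, the CD3 chains, *Lck*, *Zap70* and *Lat*, and names each gene of the other lists past the study's thresholds. Further genes were named after their values were seen. A count of 3 is worth 0.106 to 0.25 CPM, which covers counting error only. Within each group all pairs of samples differed by more than sampling noise (median chi-square per gene 4.87 to 8.52), so all 8 were counted, and p-values measure the spread between these samples. Alternatives were other scaling factors, other filters, DESeq2 1.42.0, GC content offsets (mgcv 1.9.3), a table of protein-coding genes alone and the omission of each sample in turn. RPKM used the union of a gene's exons.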

Additional observations from a re-analysis of the deposited data

Results flagged for a closer look

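In 5 of the 74 sets of 4 values (37 genes in 2 genotypes), 1 sample stood apart from the other 3 by Dixon's ratio, the gap to the nearest value over the whole range, which passed Dixon's critical value at the 95% level. Chance alone flags about 1 set in 20, or 3.7 of 74. *Cd3e* in KO cells had a ratio of 0.902, with S7 at 372 CPM against 310 to 316 CPM in the others. *Cd3g* in WT cells had a ratio of 0.871, with S4 at 225 CPM against 168 to 175 CPM. *Rasgrp1* in WT cells had a ratio of 0.863, with S4 low at 159 CPM against 190 to 196 CPM, and *Ptprc* in KO cells a ratio of 0.863 as well, with S8 at 1991 CPM against 1672 to 1712 CPM. *Ptpn22* in KO cells had a ratio of 0.856, with S7 at 652 CPM against 617 to 622 CPM, a gap that is wide only beside the narrow range of the other samples.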

How the results depend on the processing

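Over 16 alternatives, for the 37 genes, the other listed genes past the study's thresholds and *Pak1*, 796 values kept their direction and their side of the adjusted p of 0.05, 26 no longer passed it, 15 passed it only under the alternative, and 26 changed sign. These 26 belong to 6 genes whose log2 fold changes in the report lie within 0.05 of 0, and none passed the test on either side. *Cd3d* was at -0.0055 with upper quartile factors, -0.0025 with library size alone and -0.058 to 0.069 with each sample left out. *Nfatc1* was at -0.0087 with each of these scalings and -0.029 to 0.056 with each sample left out. *Cbl* was at -0.0031, -0.0019 and -0.038 to 0.060. With GC content offsets *Lck* was at 0.012, *Grap2* at 0.038 and *Bcl10* at 0.033. *Bcl10* was also at 0.0025 with DESeq2 and with its size factors and at 0.0041 with protein-coding genes alone. With each sample left out *Grap2* was at -0.13 to 0.099 and *Bcl10* at -0.058 to 0.067. The count of machinery genes that rose at an adjusted p under 0.05, 2 in the report, was 1 with upper quartile factors, library size alone or GC content offsets, 3 with DESeq2 or protein-coding genes alone, and 1 to 3 with each sample left out. The count that fell, 4 in the report, was 2 to 5 with each sample left out, and 2 without S3 or S6. At the study's thresholds the count of lower genes, 1 in the report, was 0 with GC content offsets and 0 to 1 with each sample left out, where it was kept only without S1 or S5. Of the other pathway genes at these thresholds, the 4 higher ones became 2 to 5 with each sample left out (2 without S2 or S7), and the 1 lower one became 2 with no filter and with DESeq2 and 0 with any 1 sample left out. The 9 other pathway genes that fell became 4 to 9 with each sample left out, the fewest without S6. *Kdm1a* had log2 fold changes from -0.62 to -0.46 with each sample left out. Its adjusted p was above 0.05 only without S2 (log2 fold change -0.52, edgeR adjusted p = 0.0578). The cause of these changes was not tested. Over the whole table, 447 higher and 306 lower genes became 617 and 461 with DESeq2, 642 and 531 with no filter and 347 and 199 without S2. No paired analysis was possible because the columns carry no replicate numbers. With 4 samples a group, standard errors of 0.09 to 0.14 on the log2 scale set the size of change that could be told apart for the 37 genes.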
